A study of Mus musculus with 9 samples.

Results

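The endothelial cell genes described here are 34 genes that mark the cells lining blood vessels, chosen by name as a list and found through probe sets whose array annotation gives exactly 1 gene symbol. All 34 were on the array and all 34 passed the filter on detection, against 11796 of 18193 named genes in the whole series. They were read in the stromal vascular fraction (SVF), the mixed stromal, vascular and blood-derived cells left when inguinal subcutaneous fat is digested and the floating adipocytes are removed. All mice were wild type, of strain Balb/c and aged 10 weeks. The priming procedure is surgical injury of the inguinal fat in the labels, and in the study's methods it is mincing of the fat together with ligation of its feeding artery. SVFs were taken at day 0, day 1 or day 3, from 3 mice a day and 1 Affymetrix Mouse430_2 array a mouse, and day 0 is taken here as the baseline. The labels call it day 0 after injury and do not say whether these mice were operated on and taken at once or not operated on. The study treats day 0 as nonprimed. No uninjured mice followed to day 1 or day 3 were among the arrays analysed here, so time and injury cannot be told apart.

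Endothelial cells form the inner lining of vessels. Their adherens and tight junctions hold the wall closed, their receptors read angiopoietins, apelin, sphingosine 1-phosphate and endothelins, and on activation they expose selectins that slow leukocytes. Their identity rests largely on transcription factors of the ETS family (such as Erg and Fli1) and the SoxF family (Sox7, Sox17 and Sox18), and in fat their capillaries also take up fatty acids released from lipoproteins. Each used probe set was called present on all 3 arrays of every day, including the defining junction genes Pecam1 and Cdh5. Endothelial RNA was thus read on every array, which does not tell an SVF from other tissue with vessels. An SVF holds many cell types, so a lower signal of an endothelial gene can come from fewer endothelial cells or from less RNA per cell, and these cannot be told apart in bulk RNA.

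Promoter sequence was at hand for 17 of the 34 genes, from RefSeq on build GRCm38.p6. The 4 below are shown because their genes followed the 3 courses that the results turn on. Robo4 (chr9:37401722-37401971, plus strand) and Tie1 (chr4:118489850-118490099, minus strand) fell on day 1 and rose again by day 3, Cldn5 (chr16:18776597-18776846, plus strand) fell and stayed low, and Apln (chrX:48034854-48035103, minus strand) rose. Each run is the 250 bases that precede the annotated start site, written 5′ to 3′ on the gene's strand, and capitals mark matches to AGGAAG or its reverse complement CTTCCT, a form of the core that ETS factors bind.
Robo4: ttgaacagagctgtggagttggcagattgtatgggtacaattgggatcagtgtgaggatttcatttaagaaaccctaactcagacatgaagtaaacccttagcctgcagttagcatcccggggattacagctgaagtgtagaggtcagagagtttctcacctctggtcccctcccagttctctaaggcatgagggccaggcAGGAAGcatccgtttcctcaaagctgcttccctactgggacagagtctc
Tie1: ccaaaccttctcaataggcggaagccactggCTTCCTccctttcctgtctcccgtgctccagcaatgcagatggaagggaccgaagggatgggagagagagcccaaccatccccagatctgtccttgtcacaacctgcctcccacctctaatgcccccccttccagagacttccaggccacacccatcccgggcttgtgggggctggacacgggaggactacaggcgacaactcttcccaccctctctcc
Cldn5: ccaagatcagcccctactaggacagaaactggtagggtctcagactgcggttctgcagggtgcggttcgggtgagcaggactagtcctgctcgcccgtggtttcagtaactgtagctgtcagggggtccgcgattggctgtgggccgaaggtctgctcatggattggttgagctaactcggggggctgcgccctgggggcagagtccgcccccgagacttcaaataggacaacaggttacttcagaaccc
Apln: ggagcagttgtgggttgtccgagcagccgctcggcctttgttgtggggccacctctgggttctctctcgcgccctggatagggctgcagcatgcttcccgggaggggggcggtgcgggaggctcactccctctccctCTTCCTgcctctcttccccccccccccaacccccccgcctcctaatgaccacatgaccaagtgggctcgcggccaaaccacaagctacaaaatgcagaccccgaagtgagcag
The match lay 49 bases before the start site in Robo4, 219 in Tie1 and 113 in Apln, and these letters were not in the Cldn5 window. Over the 22 promoter entries of the 17 genes, 54.5% held AGGAAG on either strand, against 29.5% of all 32851 promoters of the same length. The 11 genes with a match were Apln, Egfl7, Emcn, Eng, Erg, Rasip1, Rhoj, Robo4, Sele, Selp and Tie1. The SOX core AACAAT was in 13.6% of the members' entries against 9.42% of all, the GATA core GATAAG in 9.09% against 6.55%, the hypoxia response core ACGTG in 4.55% against 16.6%, and the NF-kB form GGNNTTTCC in 9.09% against 4.93%, each on either strand. Matches of different motifs overlapped in 1 of the members' entries. These shares are descriptions of letters in a window, and no test was made.

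On day 1 the endothelial genes were mostly lower than on day 0. Of the 34, 17 fell, 2 rose and 15 were not called (limma over all 11796 genes, two-sided, Benjamini-Hochberg adjusted p under 0.05). The 50% of members called lower stands beside 17.9% of all genes tested, and the 5.88% called higher beside 10.7%. The median change was -0.53 on the log2 scale, against -0.13 over all genes. On day 3, 8 members were lower than on day 0 (23.5%, against 12.5% of all genes), 3 were higher (8.82%, against 13.6%) and 23 were not called, with a median of -0.21 against -0.03. Between day 1 and day 3, 4 members rose (11.8%, against 9.66% of all genes), 1 fell (2.94%, against 4.54%) and 29 were not called, with a median of 0.22 against 0.09. Both comparisons with day 0 share the same 3 day 0 mice. The scale of the arrays matters for this balance. Of all genes called between day 1 and day 0, 62.5% were lower on the deposited scale, 53.6% after quantile normalization and 42.8% after median centring of the arrays, and with centring the median over all genes moved from -0.13 to -0.01. On that centred scale the members' median was -0.41 and 14 rather than 17 were called lower, Cdh5, Eng and Rasip1 no longer passing. Between day 3 and day 1 the share of lower calls over all genes was 32% as deposited, 42.6% after quantile normalization and 56.6% after centring, while the members called stayed at 4 higher and 1 lower after centring.

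**Figure D1:**
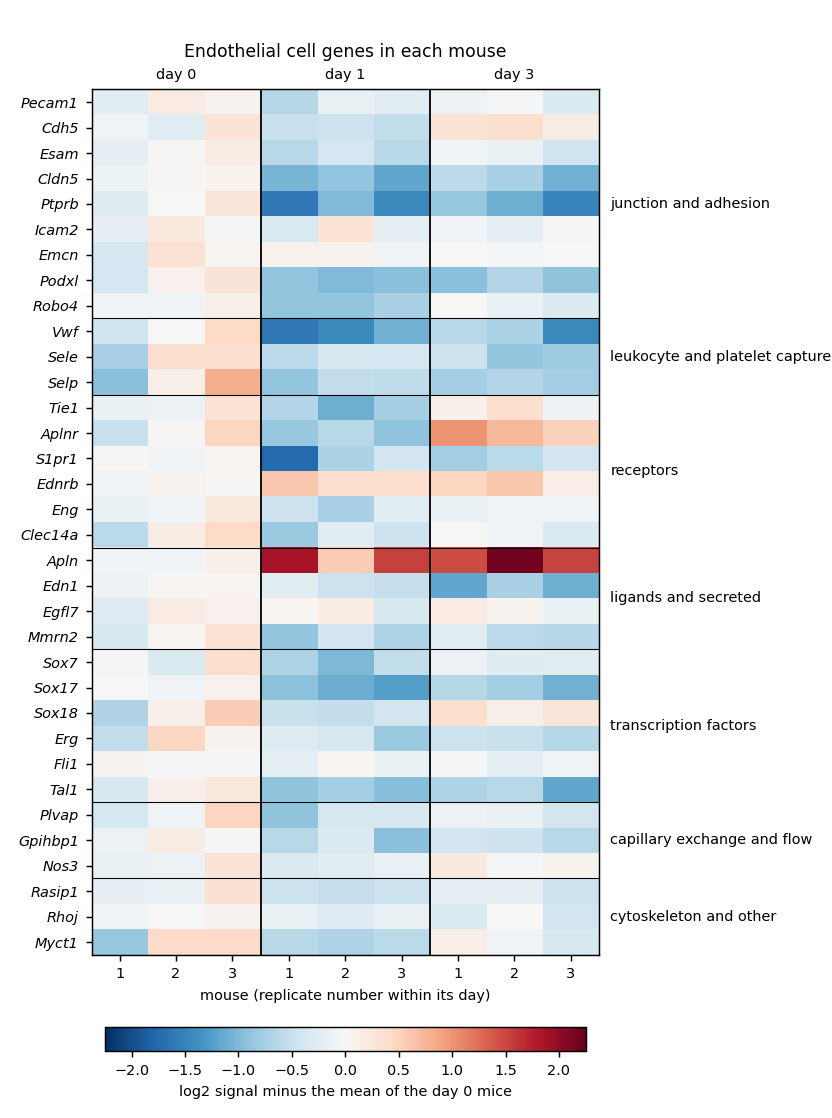
Each cell is 1 gene in 1 mouse, coloured by its log2 signal minus the mean of the 3 day 0 mice, with rows grouped by role and columns by day. Most rows are blue on day 1, Apln and Ednrb are red on both days after injury, and Aplnr turns from blue on day 1 to red on day 3.

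The courses over both days sorted the called genes. Apln and Ednrb were higher on day 1 and on day 3. Aplnr was lower on day 1 and higher on day 3. Cldn5, Gpihbp1, Podxl, Ptprb, Sox17, Tal1 and Vwf were lower on both days. Cdh5, Robo4 and Tie1 were lower on day 1, were not called on day 3 against day 0, and rose between the days. Eng, Esam, Mmrn2, Rasip1, S1pr1 and Sox7 were lower on day 1 and passed no test on day 3. Edn1 was lower on day 3 alone, against both earlier days. The remaining 14 passed no test.

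**Figure D2:**
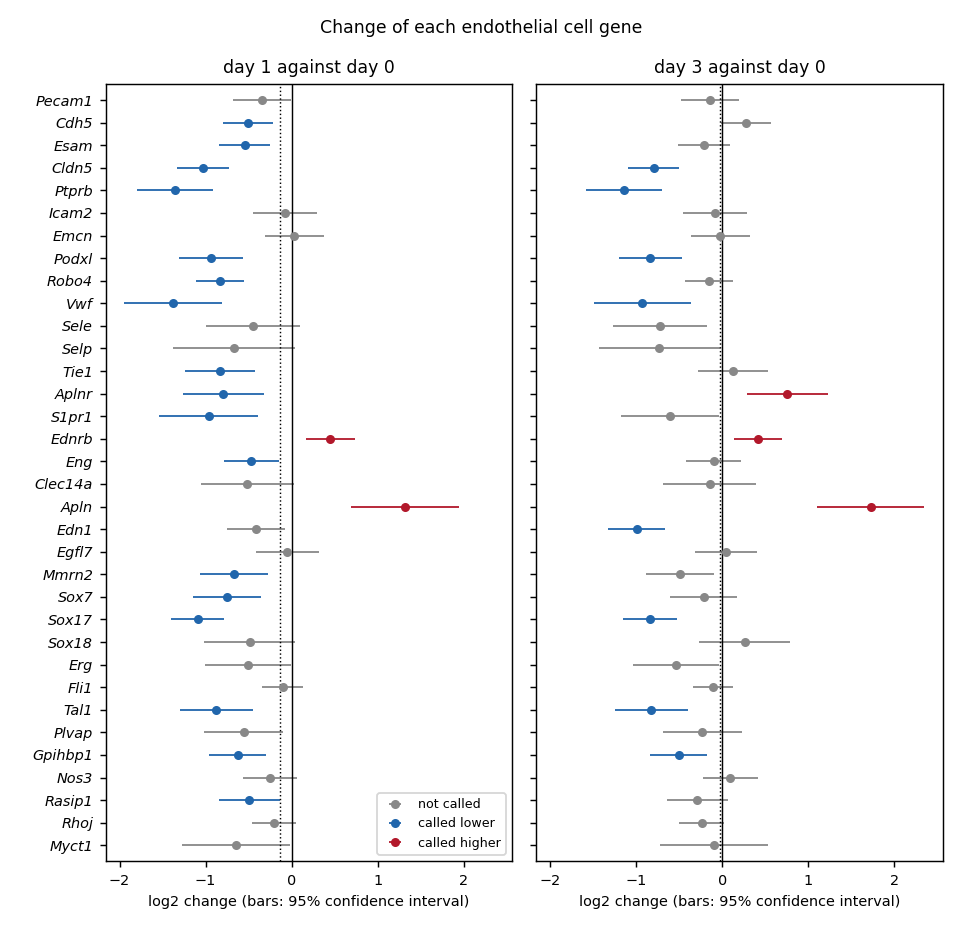
Log2 change of each of the 34 genes on day 1 (left) and day 3 (right) against day 0, with bars for the 95% confidence interval and a dotted line at the median of all genes tested. On day 1 there are 17 genes called lower and 2 called higher, and on day 3 there are 8 and 3.

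The mice within a day were not equally rich in endothelial signal, and day 0 spread the most. Averaged over the 34 genes, the day 0 mice stood at -0.29, 0.05 and 0.24 around their own mean on the log2 scale (replicates 1, 2 and 3), the day 1 mice between -0.57 and -0.48, and the day 3 mice between -0.39 and -0.17. Day 0 replicate 1 held the lowest day 0 signal in 27 of the 34 genes, while it held the lowest in 36.4% of all genes tested, and day 0 replicate 3 held the highest in 24 of the 34, against 32.2% of all genes. On day 3 replicate 3 was the lowest mouse in 22 of the 34 genes, against 38% of all genes, and on day 1 the lowest value was spread over the mice in 13, 11 and 10 genes. The median ratio of the highest to the lowest mouse was 1.42 on day 0, 1.24 on day 1 and 1.25 on day 3. The same day 0 mouse was also low in a separate list of 30 other endothelial genes (-0.205) and in 10 pericyte and smooth muscle genes (-0.21), and high in 6 B and T cell genes (0.26). Without it, 23 members were lower and 1 higher on day 1, beside 11% and 7.64% of all genes, and the day 1 median was -0.78. On day 3, also without it, 13 were lower and 1 higher, beside 9.78% and 10.7% of all genes. Without day 0 replicate 3, 10 were lower and 1 higher on day 1, beside 8.32% and 7.34% of all genes. On day 3, without replicate 3, 6 were lower and 3 higher, beside 7.74% and 10.6%.

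Of the 9 junction and adhesion genes, 6 fell on day 1 and 3 were lower on day 3. Of all genes tested, 17.9% were lower and 10.7% higher on day 1, and 12.5% and 13.6% on day 3. The counts of this role and of the smaller roles below only sort the members beside these shares. No role was tested as a group. Ptprb, the receptor phosphatase that restrains the angiopoietin receptor and steadies VE-cadherin, had signals of 3403, 4100 and 4987 on day 0, 1348, 2071 and 1499 on day 1, and 2271, 1922 and 1478 on day 3. All 6 later mice lay below every day 0 mouse. The change was -1.35 ± 0.20 (log2, SE) on day 1 (2.55-fold lower, adjusted p = 0.000722) and -1.14 ± 0.20 on day 3 (adjusted p = 0.00189, limma). A further probe set of Ptprb gave -1.35 and -1.04.

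Cldn5, the claudin of endothelial tight junctions, had signals of 4838, 5360 and 5561 on day 0, 2542, 2856 and 2323 on day 1, and 3472, 3175 and 2480 on day 3. The days after injury again lay wholly below day 0, with log2 changes of -1.03 ± 0.14 (adjusted p = 0.000347) and -0.80 ± 0.14 (adjusted p = 0.00162, limma). Podxl, a sialomucin of the luminal surface, read 921, 1302 and 1484 on day 0, 656, 610 and 635 on day 1, and 628, 766 and 648 on day 3. Its groups did not overlap either, and the changes were -0.94 ± 0.17 and -0.84 ± 0.17 on the log2 scale. These 3 genes kept both calls when any 1 array was left out.

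Cdh5 encodes VE-cadherin, the adherens junction protein of endothelium. Its signals were 2771, 2481 and 3591 on day 0, 2059, 2100 and 1984 on day 1, and 3600, 3731 and 3258 on day 3. The day 1 mice lay close together below both other days, whereas day 3 overlapped day 0. Cdh5 fell by 0.51 ± 0.14 on the log2 scale on day 1 (adjusted p = 0.0176) and rose by 0.78 ± 0.14 from day 1 to day 3 (adjusted p = 0.0035, limma). The day 3 change against day 0 was 0.28, with a 95% confidence interval of -0.02 to 0.57. Its further, dimmer probe set gave -0.76 on day 1 and 0.81 between the days. The day 1 fall was not called without day 0 replicate 3 (adjusted p = 0.0684).

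Robo4, an endothelial guidance receptor that stabilizes the vessel wall, read 887, 875 and 1019 on day 0, 502, 500 and 559 on day 1, and 918, 829 and 748 on day 3. Every day 1 mouse lay below every mouse of the other days. The log2 change was -0.83 ± 0.13 on day 1 (adjusted p = 0.000859) and 0.67 ± 0.13 from day 1 to day 3 (adjusted p = 0.00572, limma), and both calls held when any array was left out. Esam, a junctional adhesion molecule, had 3394, 3982 and 4354 on day 0, 2514, 2967 and 2533 on day 1 and 3749, 3524 and 2863 on day 3. It fell by 0.55 ± 0.14 on the log2 scale on day 1 (adjusted p = 0.0132, limma), a call lost without day 0 replicate 3, and day 3 overlapped both other days.

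Pecam1, the platelet endothelial adhesion molecule known as CD31, was not called in any comparison. Its signals ran from 2871 to 3874 on day 0, from 2202 to 3062 on day 1 and from 2769 to 3365 on day 3, and the groups overlapped. The day 1 change was -0.35 with a 95% confidence interval of -0.68 to -0.01 (adjusted p = 0.108, limma), and quantile normalization brought it to a call. Icam2, an adhesion ligand for leukocyte integrins, gave -0.08 on day 1 (interval -0.45 to 0.29), and the sialomucin Emcn gave 0.03 (interval -0.32 to 0.37). The interval of Pecam1 includes a fall of the size measured in Esam, and none of the 3 intervals includes one as large as that of Ptprb.

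**Figure D3:**
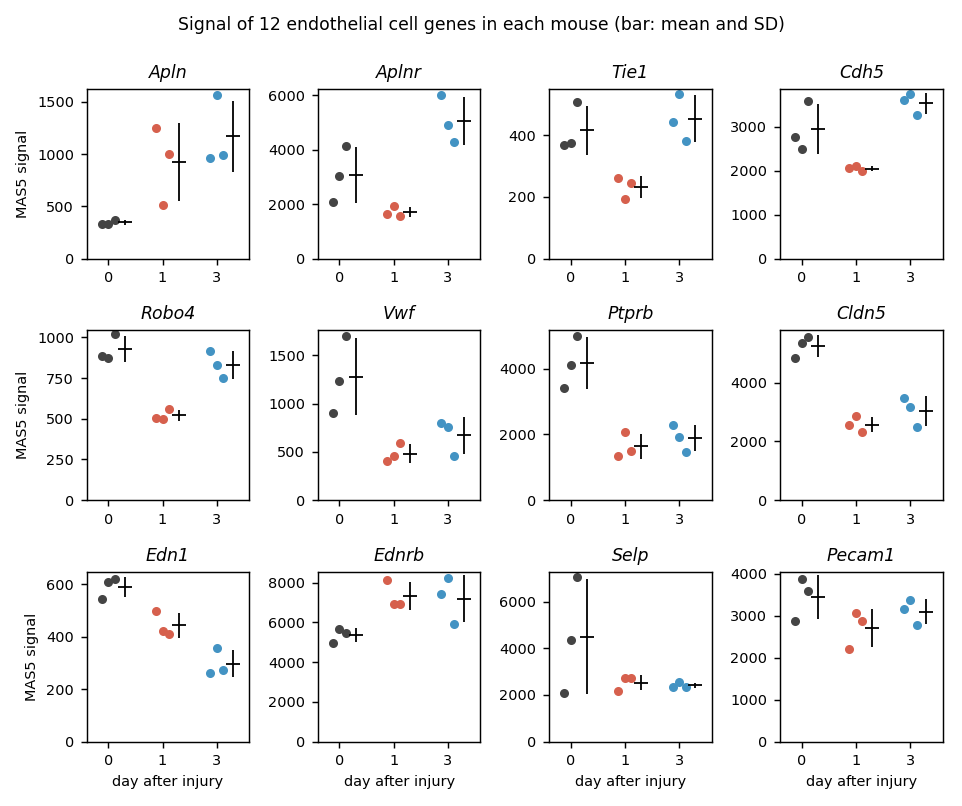
MAS5 signal (linear axis from 0) of 12 endothelial genes against the day after injury, with a point for each of the 3 mice a day in replicate order and a bar for mean and SD. Robo4, Tie1 and Cdh5 dip on day 1 only, Vwf, Ptprb and Cldn5 stay low on day 3, and Selp shows the wide spread of the day 0 mice (2082 to 7040).

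Of the 3 capture genes, Vwf fell on both days and the selectins were not called. Vwf encodes von Willebrand factor, which tethers platelets and is stored with P-selectin in endothelial granules. It had signals of 907, 1233 and 1696 on day 0, 404, 455 and 587 on day 1, and 799, 760 and 453 on day 3, so that both later days lay below day 0. The log2 change was -1.38 ± 0.26 on day 1 (2.6-fold lower, adjusted p = 0.00313), the largest fall among the members on that day, and -0.93 ± 0.26 on day 3 (adjusted p = 0.0218, limma). The day 3 call was lost without day 0 replicate 2, day 0 replicate 3 or day 3 replicate 3.

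Selp (P-selectin) and Sele (E-selectin) catch rolling leukocytes on activated endothelium. Selp read 2082, 4373 and 7040 on day 0, 2155, 2719 and 2709 on day 1, and 2355, 2542 and 2329 on day 3. Day 0 replicate 1 sat at the level of the later days and the other 2 day 0 mice sat far above them. The log2 changes were -0.67 ± 0.32 on day 1 (adjusted p = 0.134) and -0.73 ± 0.32 on day 3 (adjusted p = 0.116, limma), and without that mouse they were -1.14 (adjusted p = 0.0026) and -1.21 (adjusted p = 0.00157). Sele behaved alike, with 1274, 2721 and 2701 on day 0, a range of 1395 to 1643 on day 1 and of 1151 to 1506 on day 3. Its day 3 change of -0.72 ± 0.25 was not called (adjusted p = 0.0518) but passed under 9 of 21 alternatives, among them both other scalings, and was -1.09 (adjusted p = 0.000663, limma) without day 0 replicate 1. Neither selectin was called higher on either day. Vwf and Selp are also made by platelets and their precursors: of 5 platelet and megakaryocyte genes tested, 2 rose on day 1 and 3 were not called (median -0.01). The chemokine genes Pf4 (by 1.26 on the log2 scale) and Ppbp rose, Ppbp from 32.8 to 61 on day 0, present on 1 of 3 arrays, to 5559 to 9618. The 3 not called were Itga2b, a defining gene of that lineage (-0.01), Gp1bb (-0.39, present on 1 of 3 arrays on day 1) and Itgb3 (-0.97, adjusted p = 0.0554, limma). Vessels of lymph nodes carry selectins too, and 3 genes of such vessels, of which Chst4 was present on 1 of 3 arrays on day 1, had a median change of -0.59 on day 1 and -1.21 on day 3. The part of platelets or of nodes in the Vwf and selectin values was not tested.

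Of the 6 receptors, 4 fell and 1 rose on day 1, and on day 3 none was lower and 2 were higher than on day 0. Aplnr, the G protein-coupled receptor for apelin, was the only member called in opposite directions. Its signals were 2089, 3025 and 4143 on day 0, 1652, 1920 and 1582 on day 1, and 6012, 4900 and 4268 on day 3. Day 1 lay below day 0 and day 3 above it, with no mouse of 1 day inside another day's range. The log2 change was -0.80 ± 0.21 on day 1 (adjusted p = 0.0188), 0.76 ± 0.21 on day 3 (adjusted p = 0.0235) and 1.55 ± 0.21 from day 1 to day 3 (2.93-fold higher, adjusted p = 0.000911, limma). The rise between the days held when any array was left out. The 2 calls against day 0 were less stable: that of day 1 was lost without day 0 replicate 3 or day 1 replicate 1, and that of day 3 without day 0 replicate 1, day 0 replicate 2, day 3 replicate 1 or day 3 replicate 2. A further, dimmer probe set of Aplnr moved the same way (-0.57, 0.39 and 0.96), and with it in place of the main one the day 3 call was lost too.

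Tie1, the orphan partner of the angiopoietin receptor, had signals of 367, 375 and 508 on day 0, 262, 193 and 245 on day 1, and 444, 534 and 383 on day 3. Every day 1 mouse was below every other mouse. It fell by 0.83 ± 0.19 on the log2 scale on day 1 (adjusted p = 0.00796) and rose by 0.96 ± 0.19 to day 3 (adjusted p = 0.00666, limma), and both calls held when any array was left out. On day 3 it differed from day 0 by 0.13, with an interval of -0.28 to 0.53.

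S1pr1, the sphingosine 1-phosphate receptor that tightens endothelial junctions, read 2266, 2129 and 2321 on day 0, 666, 1366 and 1650 on day 1, and 1302, 1461 and 1668 on day 3. All later mice were below day 0. The day 1 change was -0.97 ± 0.26 (adjusted p = 0.0192, limma) and the day 3 change -0.61 ± 0.26 (adjusted p = 0.111). The first was lost without day 0 replicate 1 or day 0 replicate 3, and the second passed under 4 of the alternatives, among them a fit of only the 6 arrays compared. Lymphocytes use S1pr1 to leave lymphoid tissue, and the mean of 6 B and T cell genes in the day 1 mice was -1.77, -1.05 and -0.41 (replicates 1 to 3, log2, against day 0), with replicate 1 lowest in both. The part of lymphocytes in the S1pr1 value was not tested.

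Ednrb, the endothelin B receptor, was higher after injury. It had 4981, 5647 and 5446 on day 0, 8130, 6915 and 6944 on day 1, and 7439, 8248 and 5903 on day 3, with no overlap against day 0. The rise was 0.45 ± 0.13 on day 1 (1.37-fold, adjusted p = 0.0243) and 0.41 ± 0.13 on day 3 (1.33-fold, adjusted p = 0.0351, limma). Its 2 further probe sets gave 0.57 and 0.35 on day 1. The calls were fragile: the day 1 call was lost without day 0 replicate 1, day 0 replicate 3 or day 1 replicate 1, and after quantile normalization, and the day 3 call was lost on leaving out any of 5 arrays (each day 0 mouse, day 3 replicate 1 or day 3 replicate 2).

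Eng (endoglin, a co-receptor for bone morphogenetic proteins) read 1774, 1864 and 2314 on day 0, 1431, 1194 and 1681 on day 1, and 1763, 1866 and 1894 on day 3. It was lower on day 1 by 0.47 ± 0.15 (log2, adjusted p = 0.0326, limma) and near day 0 on day 3 (-0.10, interval -0.42 to 0.22). A further probe set of Eng gave -0.67 on day 1 but also -0.61 on day 3. The day 1 call was lost without any of 4 arrays (day 0 replicate 3, day 1 replicate 1, day 1 replicate 2 or day 3 replicate 1). Clec14a, a lectin-like receptor of vessels, gave -0.52 ± 0.25 on day 1 and was not called, with day 0 signals from 320 to 668, and was called lower without day 0 replicate 1 (-0.82, adjusted p = 0.0168, limma).

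Of the 4 ligands and secreted proteins, Apln rose, Edn1 fell late, Mmrn2 fell on day 1 and Egfl7 was not called. Apln encodes apelin, the peptide ligand of Aplnr and a product of sprouting vessel tips. It had 333, 332 and 374 on day 0, 1247, 513 and 1000 on day 1, and 958, 1563 and 990 on day 3. All 6 later mice lay above day 0, and the day 1 mice spread widely. The log2 change was 1.32 ± 0.29 on day 1 (2.49-fold higher, adjusted p = 0.00686) and 1.72 ± 0.29 on day 3 (3.3-fold, adjusted p = 0.00131, limma). Both calls held when any array was left out and under each of the other scalings and filters run for single genes. Ligand and receptor moved in opposite directions on day 1 and were both higher on day 3.

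Edn1, the precursor of the vasoconstrictor endothelin-1, had 546, 608 and 619 on day 0, 500, 422 and 410 on day 1, and 263, 356 and 275 on day 3. The 3 days formed a descending order with no overlap. The change was -0.42 ± 0.15 on day 1 (adjusted p = 0.0603), -0.996 ± 0.152 on day 3 (1.99-fold lower, adjusted p = 0.000755) and -0.58 ± 0.15 between the days (adjusted p = 0.0267, limma). The fall from day 0 to day 3 held when any array was left out, and that between the days was lost without day 1 replicate 1, day 1 replicate 2, day 3 replicate 1 or day 3 replicate 3. Edn1 had 1 probe set here, of a kind that can match several transcripts. Its receptor Ednrb was higher on that day.

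Mmrn2, a matrix glycoprotein that lines vessels, read 2285, 3026 and 3604 on day 0, 1582, 2163 and 1808 on day 1, and 2448, 1953 and 1872 on day 3. It was lower on day 1 by 0.67 ± 0.18 (log2, adjusted p = 0.0183, limma), and this was lost without day 0 replicate 3 or day 1 replicate 1. On day 3 it was not called (-0.49, adjusted p = 0.0635), though 6 of the alternatives called it. Egfl7, a secreted regulator of vessel tube formation, gave -0.05 on day 1 (interval -0.42 to 0.31) and 0.04 on day 3.

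Of the 6 transcription factors, 3 fell on day 1 and 2 of those stayed low on day 3. Sox17, a SoxF factor of arterial endothelium, had signals of 1465, 1396 and 1583 on day 0, 785, 679 and 625 on day 1, and 948, 858 and 698 on day 3. Both later days lay below day 0, with changes of -1.09 ± 0.14 (2.13-fold lower, adjusted p = 0.000304) and -0.84 ± 0.14 (adjusted p = 0.00155, limma). A further Sox17 probe set gave -1.01 and -0.83. Tal1, a blood and vessel basic helix-loop-helix factor, had 348, 479 and 525 on day 0, 236, 262 and 229 on day 1, and 275, 289 and 198 on day 3. It fell by 0.88 ± 0.19 and by 0.83 ± 0.19 on the log2 scale (adjusted p = 0.00759 and 0.00941, limma).

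The other SoxF factors followed other courses. Sox7 had 901, 738 and 1198 on day 0, 574, 461 and 630 on day 1, and 848, 772 and 778 on day 3, so that day 1 alone stood below. It fell by 0.75 ± 0.18 on day 1 (adjusted p = 0.0108), and the rise to day 3 of 0.54 ± 0.18 was not called (adjusted p = 0.067, limma). Sox18 ran from 506 to 1186 on day 0, from 555 to 604 on day 1 and from 885 to 1040 on day 3. Its changes of -0.49 on day 1 and 0.75 between the days were not called (adjusted p = 0.143 and 0.0596, limma), while without day 0 replicate 1 both passed (-0.83, adjusted p = 0.00552, and 0.75, adjusted p = 0.00711). Sox17 thus stayed low on day 3 while Sox18 was 0.26 above day 0 with an interval of -0.27 to 0.79. The ETS factors were not called: Erg changed by -0.51 ± 0.23 on day 1 and -0.54 ± 0.23 on day 3, and Fli1, which leukocytes also express, by -0.11 ± 0.11 on both days, with an interval of -0.34 to 0.13 on each. A further, dimmer probe set of Fli1 gave -0.21 on day 1 and -0.42 on day 3, the latter outside that interval. Without day 0 replicate 1, Erg was called lower on day 1 (-0.78, adjusted p = 0.0173) and on day 3 (-0.82, adjusted p = 0.0124, limma), and array weights also brought its day 3 change to a call.

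Of the 3 genes of capillary exchange and flow, Gpihbp1 fell. This anchor carries lipoprotein lipase to the capillary surface. It read 5748, 7046 and 6192 on day 0, 4096, 5110 and 3270 on day 1, and 4714, 4568 and 4075 on day 3, all later mice being below day 0. The changes were -0.62 ± 0.15 on day 1 (adjusted p = 0.0118) and -0.51 ± 0.15 on day 3 (adjusted p = 0.0302, limma). The first held when any array was left out, and the second was lost on leaving out any of 5 arrays (day 0 replicate 2 or replicate 3, or any day 3 mouse). Plvap, which forms the diaphragms of fenestrated capillaries, had 3175, 3963 and 5847 on day 0 and changed by -0.56 ± 0.21 on day 1 (adjusted p = 0.0659, limma), which passed under 5 of 21 alternatives and was -0.76 (adjusted p = 0.0277) without day 0 replicate 1. Nos3, the endothelial nitric oxide synthase, gave -0.25 on day 1 (interval -0.57 to 0.07) and 0.09 on day 3.

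Of the last 3 members, Rasip1, a Rap1 effector in vessel tube formation, was called on day 1. It had 505, 517 and 734 on day 0, 412, 402 and 414 on day 1, and 506, 504 and 410 on day 3. The fall of 0.49 ± 0.16 on the log2 scale (adjusted p = 0.041, limma) had the highest adjusted p of the called changes and was lost under 10 of 20 alternatives. Rhoj gave -0.20 ± 0.12 and -0.24 ± 0.12. Myct1 had 372, 900 and 898 on day 0, a range of 414 to 437 on day 1 and of 521 to 739 on day 3. Its day 1 change of -0.65 ± 0.29 was not called (adjusted p = 0.109) and was -1.07 (adjusted p = 0.00152, limma) without day 0 replicate 1, the lowest of all 9 mice.

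Where a called member had further probe sets that passed the filter, these moved the same way: 10 of 10 further probe sets on day 1, 5 of 5 on day 3 and 2 of 2 between the days. Of the 35 called changes over the 3 comparisons, 22 held when each array in turn was left out.

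A second list of endothelial genes, which holds none of the 34, was also mostly lower. Of its 30 tested genes 18 were lower and 2 higher on day 1 (median -0.54), beside 17.9% and 10.7% of all genes. On day 3, 16 were lower and 3 higher (median -0.49), beside 12.5% and 13.6% of all genes. From day 1 to day 3, 6 were higher and 1 lower, beside 9.66% and 4.54% of all genes. On day 1 the probe sets of Arhgef15 and Hey1 were present on 0 of 3 arrays, so their changes within these medians have no measured day 1 level. Hey1 was present on 0 of 3 arrays on day 3 too, so its day 3 change has no measured day 3 level. Klf2, a flow-induced transcription factor that lymphocytes also use, changed by -1.20 and -1.04, Ushbp1 (present on 1 of 3 arrays on day 1) by -1.10, Rasgrp3 by -1.09 and the gap junction gene Gja4 by -0.91 on day 1, and Kdr, the main receptor for vascular endothelial growth factor, by -0.69 and -0.68. Mcam and Cd93 went the other way on day 3, rising by 1.65 ± 0.17 and 0.94 ± 0.14 on the log2 scale (adjusted p = 5.83e-05 and 0.000578, limma). On day 1 the largest rise of the list was 0.85, in Ecscr. Its signals ran from 989 to 2067 on day 0 and from 1854 to 3429 on day 1, so these groups overlapped. Cd93, which is also a myeloid surface protein, is a partner of Mmrn2, and its signals of 8771, 8218 and 7755 on day 3 lay above all other mice (3430 to 4940).

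Of 30 tested partner genes, such as ligands and receptors of the listed proteins, 4 rose and 6 fell on day 1. Of all genes 10.7% rose and 17.9% fell on that day. On day 3, 6 partners were higher and 5 lower, beside 13.6% and 12.5% of all genes. The partners' medians of -0.11 and 0.03 lay near those of all genes (-0.13 and -0.03), so as a list they showed no shift of their own. The genes below are single cases. Around Tie1, the receptor Tek read 2437, 3256 and 3531 on day 0, 1902, 1897 and 1544 on day 1 and 1723, 1615 and 1525 on day 3. It fell by 0.78 ± 0.15 and by 0.91 ± 0.15 on the log2 scale (adjusted p = 0.00355 and 0.00121, limma), so that Tie1 rose between the days while the change of Tek there was -0.13 (interval -0.46 to 0.20, against 0.55 to 1.37 for Tie1). The ligand Angpt2, an antagonist released by activated endothelium, rose from 324, 409 and 403 on day 0 to 944, 1050 and 817 on day 1 and 731, 954 and 700 on day 3 (1.31 ± 0.16 and 1.07 ± 0.16), with 2 of 3 arrays present on day 0. Slit2, a guidance ligand of the Robo family, changed by -0.10 on day 1 and rose by 1.18 ± 0.18 on day 3, and Unc5b, a receptor that binds Robo4, rose by 1.04 ± 0.30 between the days (present on 2 of 3 arrays on day 1). Heg1, a junction protein tied to Rap1 and Rasip1, was called lower on day 1 (-1.08 ± 0.27), when it was present on 1 of 3 arrays. Lpl, the lipase that Gpihbp1 carries, fell with it, by 0.53 ± 0.09 on day 1 and by 0.37 ± 0.09 on day 3. Beside the selectins, Vcam1 rose by 0.42 ± 0.12 on day 1 and Icam1 was lower on day 3 by 0.47 ± 0.11. Of the leukocyte counterparts, Cd44 rose by 1.61 ± 0.11 and Itgb2 by 0.50 ± 0.12 on day 1, whereas Itgal fell by 1.06 ± 0.19. Ednra and Adamts13 were not analysed here, and Apela and Gdf2 did not pass the filter on detection.

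Other cell types of the SVF moved on the same days. All 5 neutrophil genes tested were higher on both days, but on day 0 Cxcr2 was present on 0 of 3 arrays and Mmp8 on 1 of 3, so they passed the filter through the days on which they were high. Csf3r, the receptor for granulocyte colony-stimulating factor and present on every array, rose by 2.58 on day 1 and by 1.76 on day 3. Of 7 monocyte and macrophage genes 5 were higher on each day and 1, Csf1r, was lower on day 1 by 0.48 on the log2 scale (list means of the mice at 0.61 to 0.96 on day 1 and 0.84 to 1.12 on day 3). The mean of 7 pan-leukocyte genes ran from -0.004 to 0.211 on day 1 and from -0.37 to -0.13 on day 3. Among vessel wall cells, 6 of 10 pericyte and smooth muscle genes were lower on day 1 and 4 on day 3 (mice at -0.53 to -0.40 and -0.35 to -0.22), a shift close in size to that of the endothelial list. Of 7 adipose progenitor genes 1 was lower on day 1, and 4 were lower and 1 (Col1a1, by 1.15) higher on day 3. The mice stood at -0.405 to -0.174 and -0.371 to -0.212 in that list. In 6 B and T cell genes they stood at -1.765 to -0.414 and -1.56 to -0.94, so lower means were not particular to the vessel lists. Lymphatic endothelial genes were mixed: Pdpn, which stromal cells also express, rose by 1.92 and Prox1, the defining factor, fell by 1.10 on day 1. All 5 proliferation genes were higher on day 3 and 0 of 5 were called on day 1. The part of these shifts in the endothelial values was not tested. As a description of composition within the list, each array was also centred on the mean of the 34 genes, which removes any shift they share. On that scale 3 members rose and 4 fell on day 1, beside 34% and 1.5% of all genes. By day 3, 4 rose and 7 fell, beside 18.1% and 4.06%. Between the days 2 rose and 1 fell, beside 2.08% and 9.44%. These shares follow from centring on the members themselves, which moves all other genes against them.

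**Figure D4:**
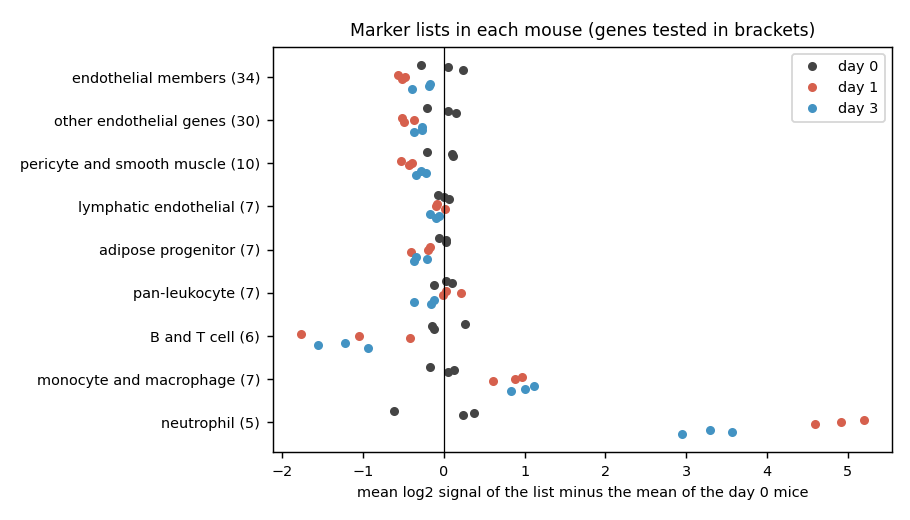
Each point is 1 mouse, placed by the mean log2 signal of a gene list minus the mean of the day 0 mice, with the number of genes tested in brackets and colours for the days. The endothelial, other endothelial, pericyte, adipose progenitor and B and T cell lists all lie left of 0 on days 1 and 3. The neutrophil list, for which 2 of 5 day 0 baselines were at or near background, lies to the right, as does the monocyte and macrophage list.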

How the data were processed

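Total RNA of 9 SVFs, 3 mice on each of days 0, 1 and 3, was measured on Affymetrix Mouse430_2 arrays, and samples were grouped by the day in their labels. The deposited intensity values are MAS5 signals on a linear scale, scaled by the authors to a trimmed mean of 500 on each array, and the deposited detection p-value of each of 45101 probe sets comes with a present, marginal or absent call. Between 24106 and 26299 probe sets were called present on an array, the 3′ to 5′ signal ratio of actin ran from 1.15 to 1.32, and the number of arrays limits the precision. Present calls numbered 25677 to 26299 on day 0, 24106 to 25557 on day 1 and 25069 to 25292 on day 3. Every day 0 array thus had more than every later array, and the part of this in the lower calls was not tested. The series' value table equalled the files of the single arrays within 5e-04 percent.

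Probe sets with several symbols (932) or none (9160) were not used. A probe set passed if at least 1 day had 3 present calls, and the brightest one that passed stood for its gene, which left 11796 genes. The log2 of the signals, without any offset, entered 1 model over all arrays in limma 3.58.1 (lmFit, contrasts.fit, eBayes with trend) in R 4.3.3, with 6 residual degrees of freedom, two-sided tests and Benjamini-Hochberg adjustment over all genes; a call is an adjusted p under 0.05. MAS5 smooths no probe effects across arrays, so low signals are noisy, and signals of different probe sets are not comparable as levels. The error after ± is the standard error of a log2 change from limma, and the fit was tested on simulated data. The study's methods called genes by a repeated-measurements analysis of variance with a 2-fold limit, which was run as an alternative.

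All members are named, with every mouse's signal where a member was called. Of other lists up to 4 called genes a comparison are named, and Kdr, Ecscr, Tek, Lpl, Icam1, Vcam1 and Itgb2 were added after their values were seen. The members and lists were chosen with earlier results of these data known, and lists are described by counts and medians without a set test. Each mouse gave 1 array. Promoters were read from RefSeq tables with Python 3 scripts. Alternatives were other scalings, offsets, filters, probe set rules, variance models, thresholds and leaving out each array.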

Additional observations from a re-analysis of the deposited data

Results flagged for a closer look

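For 5 genes the change against day 0 differed between day 3 and day 1, by the test of day 3 against day 1 (limma, adjusted over all genes tested). In that test 11.8% of members were higher and 2.94% lower, beside 9.66% and 4.54% of all genes. The number of members called thus lay near the share over all genes, and the 5 are single cases. The difference was 1.549 on the log2 scale for Aplnr (adjusted p = 0.000911), with all 3 day 3 mice above all day 1 mice. It was 0.959 for Tie1 (adjusted p = 0.00666), 0.784 for Cdh5 (adjusted p = 0.0035) and 0.673 for Robo4 (adjusted p = 0.00572), and for each of these too all 3 day 3 mice lay above all day 1 mice. For Edn1 it was -0.581 (adjusted p = 0.0267), with all 3 day 3 mice below all day 1 mice, and this one alone was lost on leaving out single arrays.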

How the results depend on the processing

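At an adjusted p under 0.01, 1 member was higher and 8 lower on day 1, 1 and 6 on day 3, and 4 and 0 between the days. With a 2-fold limit added, 1 was higher and 4 lower on day 1, 1 and 1 on day 3, and 1 and 0 between the days. An analysis of variance of the 2 days compared, with the 2-fold limit, was run in 2 forms. The one-way form, which the methods do not name, gave 1 and 4, 1 and 1, and 1 and 0. After Benjamini-Hochberg it gave 0 and 2, 1 and 0, and 1 and 0. The repeated-measurements form, which the methods name, gave 0 and 4, 1 and 0, and 1 and 0. Here it had to pair different mice by their replicate number. The shares of all genes under these limits and tests were not computed. Quantile normalization left 1 higher on day 1, beside 11.5% of all genes. Array weights gave 13 lower on day 3, beside 18.9% of all genes, which was 12.5% in the main fit. A fit of only the 6 arrays compared gave 7 higher between the days, beside 8.68% of all genes. Leaving out probe sets that can share transcripts gave 0 lower between the days, beside 4.22% of all genes.

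Leaving out 1 array gave 1 to 2 members higher and 10 to 23 lower on day 1, 1 to 3 and 6 to 13 on day 3, and 4 to 6 and 0 to 1 between the days, with medians of -0.778 to -0.369, -0.349 to -0.115 and 0.144 to 0.326. The share of all genes called lower then ran from 8.32% to 24.1% on day 1 and from 6.96% to 15.3% on day 3. Centring on the mean of the members, chosen after seeing the data, gave medians of -0.013, 0.031 and -0.054. It gave 4 lower on day 1, beside 1.5% of all genes, and 2 higher between the days, beside 2.08%. By its own construction it turned Cdh5 (0.011), Eng (0.048) and Rasip1 (0.025) on day 1. The cause of the other moves was not tested. Same-numbered mice share only a number (correlations of their deviations -0.147 to 0.331), and a replicate block gave 2 higher and 17 lower on day 1, 3 and 9 on day 3, and 6 and 1 between the days, with 1 call lost and 4 gained. With that block 11.3% of all genes were higher and 18.5% lower on day 1. The shares of all genes were 13.6% and 13.1% on day 3, and 9.58% and 5.22% between the days. Of the 35 called changes, 22 held under all alternatives run for single genes other than the members' centring. With 3 mice a day, intervals stayed wide where the day 0 mice spread, as in Selp.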
